A study of Mus musculus with 9 samples.

Results

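RNA levels of 10 genes of germ cell RNA control and of the piRNA pathway were examined in mouse induced pluripotent stem cells (iPS cells), in the embryonic stem cell line R1 and in mouse embryonic fibroblasts (MEF). The genes were Ddx4, Dazl, Mael, Tex19.1, Piwil2, Tdrd1, Tdrd12, Tdrkh, Mov10l1 and Sohlh2, taken by name with earlier results of these data known. Each of the 10 had exactly 1 probe set assigned to it alone, so all 10 were measured, among 19938 genes on Affymetrix whole-transcript arrays. Total RNA of each group was hybridised to 3 arrays. The iPS cells are labelled as made from MEF, R1 is a single established line, and the MEF, kept below passage 3 in culture, were the starting cells of the iPS cells. The arrays of a line are called biological repeats in the design text, without word of separate derivations. Each p-value rests on a spread pooled over 3 such repeats in each of the 3 groups, and the repeats may be technical. The labels used here give no strain, iPS clone number or reprogramming factors, so a difference between iPS and R1 arrays cannot be told apart from a difference between 2 lines. ES cells and MEF were named as the controls of the iPS cells, and the same MEF arrays serve in the comparisons of iPS cells and of R1 with MEF.

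In the germ line, PIWI proteins carry short RNAs called piRNAs, which direct the silencing of transposons. Precursor transcripts are handed over by RNA helicases, cut and trimmed at mitochondria, and loaded onto PIWI proteins in granules, where Tudor proteins bind the methylated arginines of PIWI proteins and hold the machinery together. Most of these genes are kept silent in somatic cells by promoter DNA methylation and, in early embryos and ES cells, by repressor complexes that include the E-box binding pair Mga and Max and the factor E2f6. Several germ line genes are nevertheless known to be transcribed in mouse ES cells.

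Most of the 10 genes were higher in both pluripotent groups than in fibroblasts. Since they were chosen with earlier results of these data known, counts above the share of all genes are no independent support. A gene was called changed at an adjusted p under 0.05 in limma, with Benjamini-Hochberg adjustment over all 19938 genes, and a difference of at least 1 on the log2(signal + 16) scale. In iPS cells against MEF, 7 of the 10 rose (5.08% of all genes did) and 1, Tdrkh, fell (7.58% of all genes). In R1 against MEF, 8 rose (5.56% of all genes) and 0 fell (7.94% of all genes), although 9 were higher and 1, Tdrkh, lower at an unadjusted p under 0.05. In each of these comparisons all 10 had an adjusted p under 0.05. So did 9572 of all 19938 genes in iPS cells against MEF and 9750 in R1 against MEF. Between iPS and R1 cells, 0 rose (0.296% of all genes) and 1, Sohlh2, fell (0.166% of all genes). At an unadjusted p under 0.05, 4 were higher and 4 lower. Counts over all genes at an unadjusted p were not taken. The median difference of the 10 was 1.70 for iPS cells and 2.03 for R1 cells against MEF, and -0.05 for iPS against R1, beside medians of 0.016, 0.023 and -0.006 over all genes. The arrays of 9 genes did not overlap and lay above MEF in iPS cells, and 1 lay below, where 27.3% of all genes lay above and 24.9% below. In R1 cells 9 lay above MEF and 1 below, where 29.1% of all genes lay above and 25.3% below. In iPS against R1, 2 genes lay above and 4 below without overlap, beside 9.84% and 12.1% of all genes.

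**Figure D1:**
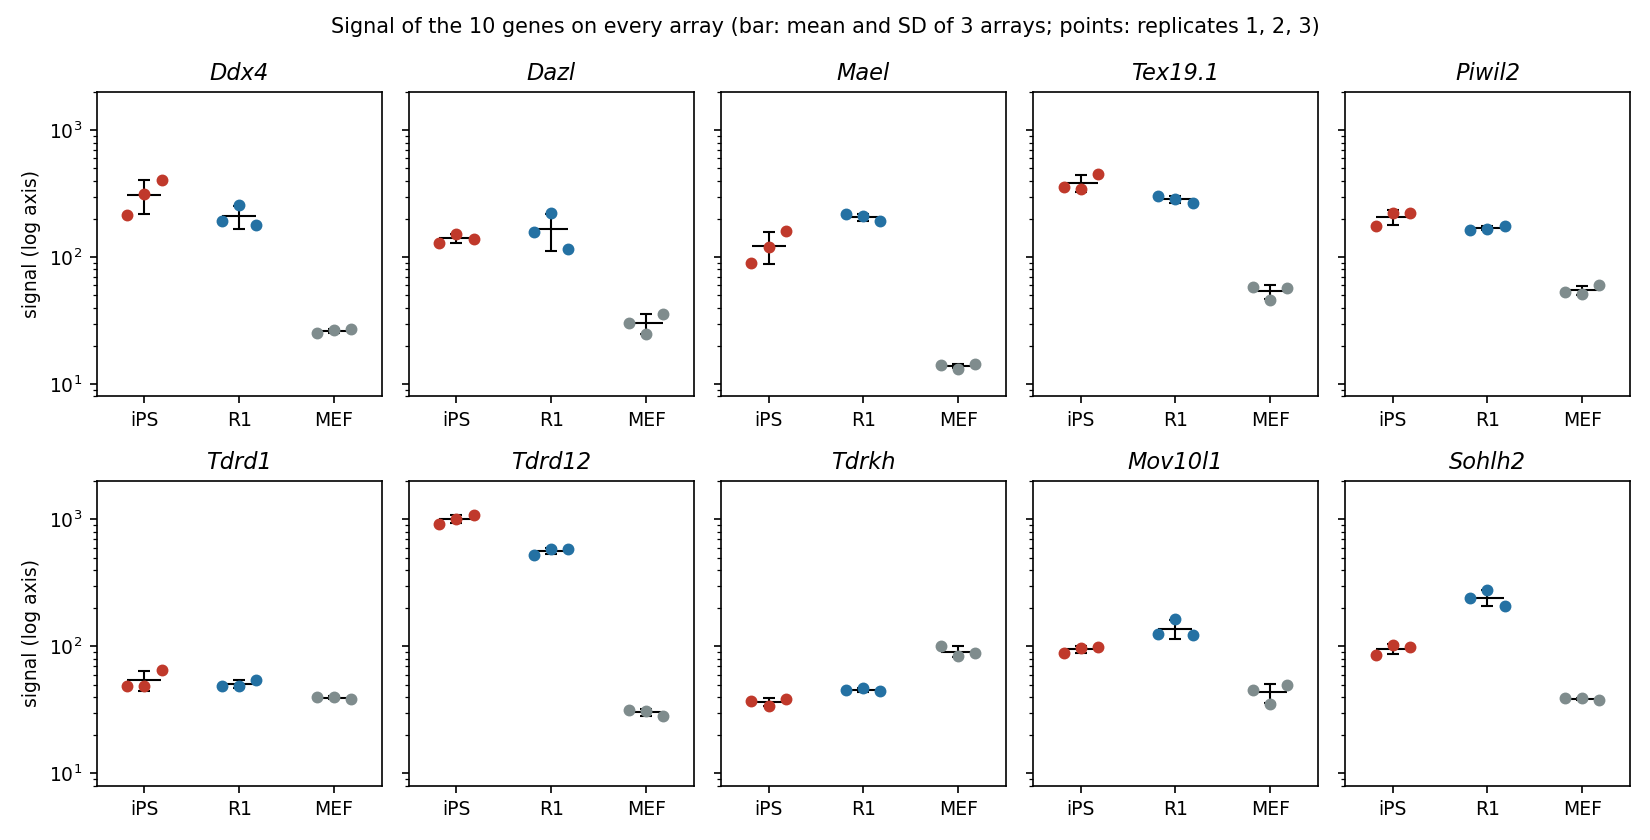
Signal of each of the 10 genes on every array (log axis), with iPS, R1 and MEF from left to right, points for replicates 1, 2 and 3, and a bar for the mean and SD of 3 arrays. The pluripotent arrays of 9 genes lie above all MEF arrays, while the Tdrkh arrays of MEF (84.4 to 101) lie above those of both pluripotent groups.

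The cells carried the markers of their labels. The summed signal of 8 pluripotency genes, Nanog and Pou5f1 among them, was 21200 to 22700 in iPS arrays and 27300 to 28200 in R1 arrays, against 329 to 397 in MEF arrays. Summed signals of 8 fibroblast genes such as Col1a1 were 3060 to 3640 in iPS arrays, 2080 to 3000 in R1 arrays and 27700 to 31400 in MEF arrays. Among 8 genes of late male germ cells, including the protamines Prm1 and Prm2, 0 were called by limma in any comparison and 0 had an unadjusted p under 0.05, and their sums were 302 to 330 in iPS, 305 to 320 in R1 and 304 to 326 in MEF arrays. Of 8 oocyte genes 0 were called and 1 had an unadjusted p under 0.05 in each comparison, with sums of 307 to 317 in iPS, 285 to 310 in R1 and 253 to 280 in MEF arrays. Of these oocyte genes Zp3, a zona pellucida protein, had mean signals of 81.0 in iPS cells, 61.1 in R1 cells and 35.5 in MEF. Among 8 markers of primordial germ cells, the embryonic founders of the germ line, 4 were called higher in iPS cells against MEF. They were Kit (difference 3.61), Tfap2c (2.88), Dppa3 (2.1) and Prdm14 (1.69). In R1 against MEF 3 were called higher (Kit, Tfap2c and Prdm14) and 1, Ifitm3, lower. In iPS against R1, Dppa3 and Ifitm3 were called higher (0.296% of all genes). Shares of all genes called higher and lower were 5.08% and 7.58% in iPS against MEF, and 5.56% and 7.94% in R1 against MEF. Sums of these 8 markers were 4690 to 5430 in iPS, 2840 to 3530 in R1 and 3770 to 3930 in MEF arrays. Ifitm3 was the brightest of the 8 in each group. Of this list Nanos3, Prdm1 and Dnd1 were not called in any comparison, but each had smaller differences that passed the adjusted p. Nanos3 differed by 0.47 in R1 against MEF (limma adjusted p = 0.000104). Dnd1 differed by 0.38 in iPS against MEF (adjusted p = 0.00301), and Prdm1 by 0.48 in iPS against R1 (adjusted p = 0.00979). In such bulk samples fewer expressing cells and less RNA per cell cannot be told apart. Median signals of the arrays were 78.2 to 83.3, and 30.1% of all genes had a mean signal under 50, where a difference on this scale is understated.

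Promoter windows of 9 of the 10 genes were in a RefSeq table (GRCm38.p6), each reaching from 250 bases before to 50 bases after an annotated start. There were 12 windows, since Tdrd1 had 3 starts and Tdrd12 had 2. A pair of short motifs were searched on both strands, the E-box CACGTG bound by Mga and Max and the motif TCCCGC bound by E2f6 (GCGGGA on the other strand), and no 2 matches overlapped. The following windows are printed as examples, with a motif in Ddx4, Mael, Mov10l1 and Tex19.1 and none in Tdrd12 and Sohlh2. Tdrd12 was taken for the largest difference from MEF, and Sohlh2 for the largest of iPS cells from R1. Dazl and Tdrkh, which also held no motif, and Tdrd1, which held one, are not printed. Sequences run 5′ to 3′ on the gene's strand, and capitals mark motif matches.
Ddx4, chr13:112652261-112652560, minus strand: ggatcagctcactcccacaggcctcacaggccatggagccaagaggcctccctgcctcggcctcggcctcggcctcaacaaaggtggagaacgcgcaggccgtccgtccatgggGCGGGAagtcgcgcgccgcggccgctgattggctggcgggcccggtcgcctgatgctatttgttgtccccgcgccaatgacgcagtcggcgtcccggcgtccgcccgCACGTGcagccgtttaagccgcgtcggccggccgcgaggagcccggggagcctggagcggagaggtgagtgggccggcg
Mael, chr1:166238695-166238994, minus strand: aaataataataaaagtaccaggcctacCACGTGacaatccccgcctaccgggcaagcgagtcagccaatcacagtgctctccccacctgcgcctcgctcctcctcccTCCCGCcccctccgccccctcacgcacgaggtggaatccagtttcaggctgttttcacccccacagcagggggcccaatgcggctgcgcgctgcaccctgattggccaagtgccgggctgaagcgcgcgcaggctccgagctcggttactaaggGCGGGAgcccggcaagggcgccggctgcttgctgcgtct
Mov10l1, chr15:88982744-88983043, plus strand: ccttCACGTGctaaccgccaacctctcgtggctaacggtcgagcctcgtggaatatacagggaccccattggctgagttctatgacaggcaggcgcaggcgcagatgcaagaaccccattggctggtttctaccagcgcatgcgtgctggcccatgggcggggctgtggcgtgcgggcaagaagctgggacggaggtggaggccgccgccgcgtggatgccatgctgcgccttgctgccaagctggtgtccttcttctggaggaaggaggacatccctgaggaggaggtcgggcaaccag
Tex19.1, chr11:121145893-121146192, plus strand: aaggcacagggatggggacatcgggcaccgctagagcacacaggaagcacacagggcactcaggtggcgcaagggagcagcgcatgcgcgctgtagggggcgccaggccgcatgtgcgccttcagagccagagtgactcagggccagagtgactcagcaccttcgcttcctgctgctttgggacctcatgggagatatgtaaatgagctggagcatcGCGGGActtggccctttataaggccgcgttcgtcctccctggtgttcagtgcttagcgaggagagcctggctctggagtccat
Tdrd12, first of 2 starts, chr7:35537666-35537965, minus strand: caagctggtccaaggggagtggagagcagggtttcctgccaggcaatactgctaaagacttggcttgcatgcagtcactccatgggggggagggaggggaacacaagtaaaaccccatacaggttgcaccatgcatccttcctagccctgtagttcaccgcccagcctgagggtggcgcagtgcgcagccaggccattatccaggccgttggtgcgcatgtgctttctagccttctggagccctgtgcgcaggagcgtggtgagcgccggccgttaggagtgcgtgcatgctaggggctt
Sohlh2, chr3:55181794-55182093, plus strand: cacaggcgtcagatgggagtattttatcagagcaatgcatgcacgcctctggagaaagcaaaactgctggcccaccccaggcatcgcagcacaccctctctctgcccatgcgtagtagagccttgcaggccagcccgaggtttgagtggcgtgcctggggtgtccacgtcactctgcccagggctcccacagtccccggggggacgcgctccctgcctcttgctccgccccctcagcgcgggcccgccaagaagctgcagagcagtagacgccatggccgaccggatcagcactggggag

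The E-box was found in 4 of the 9 genes. Its first base lay at -29 from the start in Ddx4, at -223 in Mael, at -246 in Mov10l1, and in the overlapping windows of the first and second start of Tdrd1 at -11 and -77, which is one and the same site. The TCCCGC motif was found in 3 genes, at -136 in Ddx4, at -33 in Tex19.1 and at 2 places in Mael. Ddx4 and Mael held both motifs, and Dazl, Sohlh2, Tdrd12 and Tdrkh held neither. Counted by window, 41.7% of the 12 windows held the E-box, 25% the TCCCGC motif and 16.7% both. Of all 32851 windows in the table, 7.15% held the E-box, 20% the TCCCGC motif and 1.99% both. Both motifs contain CpG and occur more often in CpG-rich windows, where 11.3% held the E-box, 43.1% the TCCCGC motif and 4.77% both. CpG-rich here means an observed over expected CpG ratio of at least 0.6, which 7 of the 12 windows and 35.8% of all windows reached. The ratio was highest in Ddx4 (0.98) and Tdrkh (0.96), intermediate in Tex19.1 (0.58) and Sohlh2 (0.54), 0.41 and 0.34 in the 2 windows of Tdrd12, and lowest at the third start of Tdrd1 (0.22). The windows of Tdrd12 lay near the middle of all windows, whose median ratio was 0.38. These matches describe letters in a window only.

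**Figure D2:**
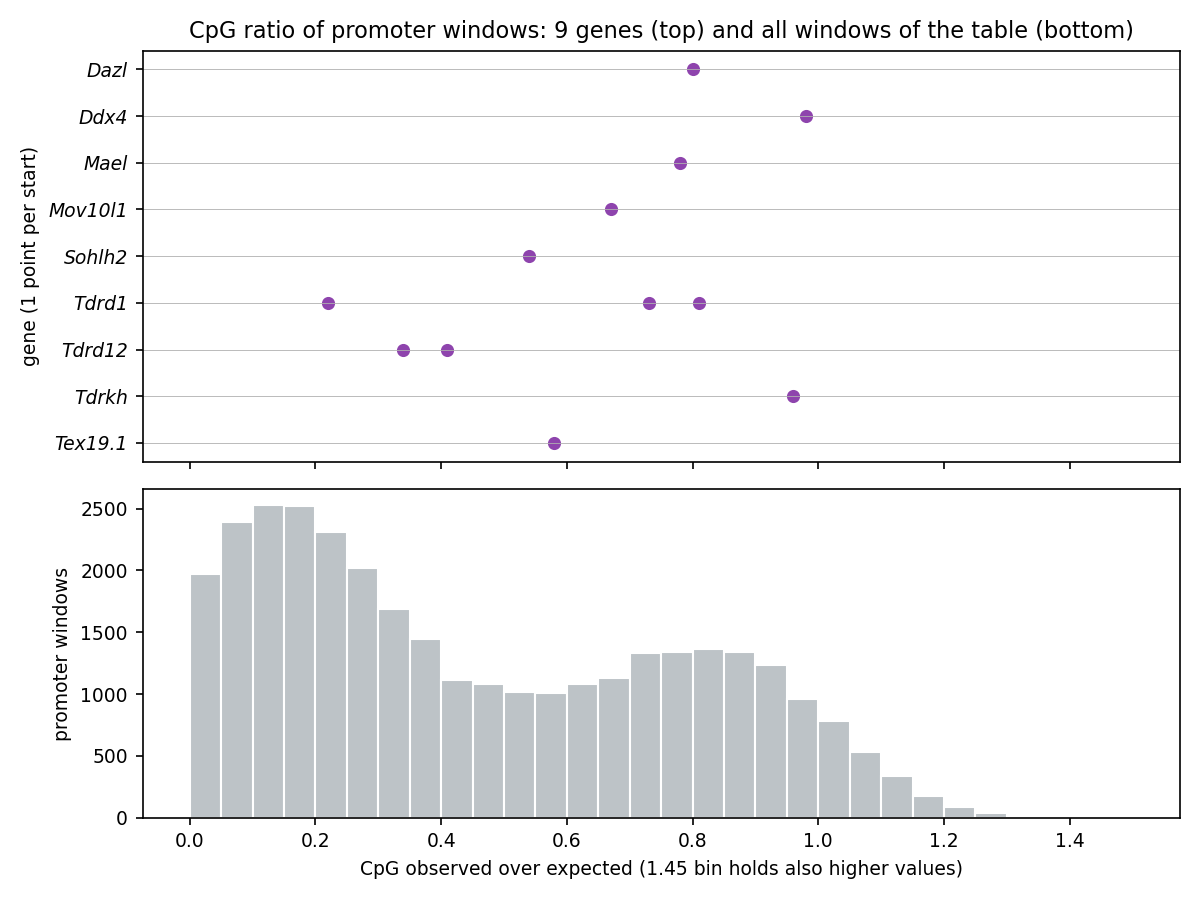
CpG observed over expected in the promoter windows of 9 of the 10 genes (top, 1 point per start) and in all 32851 windows of the table (bottom, counts per bin). Median ratios are 0.70 for the 12 windows and 0.38 for all, and the windows of Tdrd12 (0.41 and 0.34) lie far from that of Ddx4 (0.98).

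Ddx4, the mouse vasa RNA helicase of germ cell granules, had signals of 217, 315 and 402 in iPS arrays, 193, 258 and 179 in R1 arrays and 25.1, 26.5 and 27.1 in MEF arrays. Every pluripotent array was well above every fibroblast array, while the iPS and R1 arrays overlapped. Ddx4 rose in iPS cells against MEF by 2.91 ± 0.19 (standard error, as for all differences below; adjusted p = 8.99e-07 in limma) and in R1 against MEF by 2.40 ± 0.19 (adjusted p = 3.23e-06). The difference of 0.51 ± 0.19 between iPS and R1 did not pass the test (adjusted p = 0.162). Its mean in iPS arrays was 311 ± 93 (SD, n = 3), an SD of 29.7% of the mean, which was the largest such share among the 10 genes in iPS arrays.

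Dazl, an RNA-binding protein that controls the translation of germ cell transcripts, had signals of 130, 152 and 140 in iPS arrays, 159, 221 and 116 in R1 arrays and 30.5, 24.6 and 35.5 in MEF arrays. Its level in R1 varied over a range that held all 3 iPS arrays. Dazl rose in iPS cells against MEF by 1.77 ± 0.18 (limma adjusted p = 2e-05) and in R1 against MEF by 1.94 ± 0.18 (adjusted p = 9.67e-06). The difference between iPS and R1 was -0.17 ± 0.18 (adjusted p = 0.726).

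Mov10l1, the helicase that binds piRNA precursors and starts their processing, had signals of 88.0, 96.3 and 99.7 in iPS arrays, 125, 164 and 122 in R1 arrays and 45.6, 35.0 and 49.5 in MEF arrays. The 3 groups did not overlap, with R1 highest and MEF lowest. In iPS against MEF the difference of 0.91 ± 0.12 had a limma adjusted p of 0.000109 but was under the minimum of 1, and without a pseudocount it was 1.14 and was called. Mov10l1 rose in R1 against MEF by 1.36 ± 0.12 (adjusted p = 5.44e-06). Between iPS and R1 the difference was -0.46 ± 0.12 (adjusted p = 0.0443), too small to be called.

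Tdrkh, a Tudor protein of the mitochondrial surface that is needed for trimming piRNA 3′ ends, ran the other way. Its signals were 37.3, 33.8 and 38.6 in iPS arrays, 45.3, 47.2 and 44.3 in R1 arrays and 101, 84.4 and 88.0 in MEF arrays. The groups did not overlap, and fibroblasts had the highest level. Tdrkh fell by 1.03 ± 0.06 in iPS cells against MEF (limma adjusted p = 6.11e-07), while the difference of -0.80 ± 0.06 in R1 against MEF (adjusted p = 3.25e-06) stayed under the minimum size. The call in iPS cells sat at that minimum: the difference was -0.99 without iPS replicate 2 and -0.96 without MEF replicate 1, and neither was called. The difference between iPS and R1 was -0.23 ± 0.06 (adjusted p = 0.0613). The fibroblast markers, listed because fibroblasts express them, ran the same way, with 8 of 8 called lower in each pluripotent group than in MEF. Of all genes 7.58% were called lower in iPS cells and 7.94% in R1. A link between these markers and the level of Tdrkh was not tested.

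Piwil2, the PIWI protein known as MILI that binds piRNAs in fetal and postnatal germ cells, had signals of 175, 223 and 221 in iPS arrays, 163, 168 and 176 in R1 arrays and 52.7, 51.6 and 60.5 in MEF arrays. It rose in iPS cells against MEF by 1.64 ± 0.09 (limma adjusted p = 2.37e-07) and in R1 against MEF by 1.38 ± 0.09 (adjusted p = 6.77e-07). One iPS array lay within the range of the R1 arrays, and the difference between iPS and R1 was 0.26 ± 0.09 (adjusted p = 0.125). Neither of the other PIWI genes was called. Piwil1 had means of 42.9 in iPS, 43.6 in R1 and 42.9 in MEF, and Piwil4 had 49.2 in iPS, 52.0 in R1 and 46.4 in MEF.

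Tdrd1 and Tdrd12, both Tudor proteins that work with PIWI proteins in piRNA production, stood at opposite ends. Tdrd1 had signals of 48.8, 48.5 and 65.3 in iPS arrays, 49.2, 48.5 and 54.6 in R1 arrays and 40.2, 39.7 and 38.6 in MEF arrays. All pluripotent arrays were above all fibroblast arrays, by a small margin. Its differences of 0.33 ± 0.09 in iPS against MEF (limma adjusted p = 0.00922) and 0.27 ± 0.09 in R1 against MEF (adjusted p = 0.0275) were not called, and iPS and R1 arrays overlapped (0.07 ± 0.09, adjusted p = 0.797).

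Tdrd12 had signals of 929, 1017 and 1082 in iPS arrays, 526, 584 and 580 in R1 arrays and 31.6, 30.9 and 28.1 in MEF arrays. No group overlapped another, with iPS highest. It rose by 4.47 ± 0.07 in iPS cells against MEF (limma adjusted p = 1.97e-10), which ranked 27 by size among all 19938 genes, and by 3.65 ± 0.07 in R1 against MEF (adjusted p = 5.24e-10), which ranked 103. Its MEF signals were low and are not told apart from background, so no linear fold is given. Between iPS and R1 the difference of 0.82 ± 0.07 had an adjusted p of 0.000164 and was under the minimum of 1, with a ratio of means of 1.79.

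Mael, the Maelstrom protein of the germ granule that takes part in transposon silencing, had signals of 90.5, 120 and 160 in iPS arrays, 218, 209 and 193 in R1 arrays and 14.1, 13.2 and 14.4 in MEF arrays. The iPS arrays were spread out and all lay below the R1 arrays. Mael rose in iPS cells against MEF by 2.19 ± 0.15 (limma adjusted p = 9.34e-07) and in R1 against MEF by 2.90 ± 0.15 (adjusted p = 1.27e-07). Between iPS and R1 the difference was -0.70 ± 0.15 (adjusted p = 0.0184), too small to be called.

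Tex19.1, which restrains retrotransposons in germ cells and is also known from pluripotent cells and placenta, had signals of 357, 347 and 455 in iPS arrays, 304, 286 and 265 in R1 arrays and 57.7, 46.2 and 57.3 in MEF arrays. Here iPS arrays were highest and no group overlapped another. Tex19.1 rose in iPS cells against MEF by 2.52 ± 0.11 (limma adjusted p = 5.13e-08) and in R1 against MEF by 2.11 ± 0.11 (adjusted p = 1.33e-07). The difference between iPS and R1 was 0.41 ± 0.11 (adjusted p = 0.0476) and was not called. Its close relative Tex19.2, the gene next to it on chromosome 11, had mean signals of 67.7 in iPS, 63.9 in R1 and 59.3 in MEF and was not called.

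Sohlh2, a helix-loop-helix transcription factor of early spermatogonia and oocytes, had signals of 86.2, 102 and 99.0 in iPS arrays, 242, 278 and 207 in R1 arrays and 38.9, 39.4 and 37.8 in MEF arrays. Each group stood apart, with R1 highest and iPS between R1 and MEF. Sohlh2 fell by 1.20 ± 0.09 in iPS cells against R1 (limma adjusted p = 0.000145), with a ratio of means of 0.395. Against MEF it rose by 1.03 ± 0.09 in iPS cells (adjusted p = 9.3e-06) and by 2.23 ± 0.09 in R1 (adjusted p = 4.41e-08). The iPS call against MEF was not made without iPS replicate 2, where the difference was 0.99, or with a pseudocount of 64, where it was 0.64. With that pseudocount the difference between iPS and R1 was -0.93 and was not called. Its partner gene Sohlh1 had means of 67.8 in iPS, 67.1 in R1 and 64.2 in MEF and was not called.

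**Figure D3:**
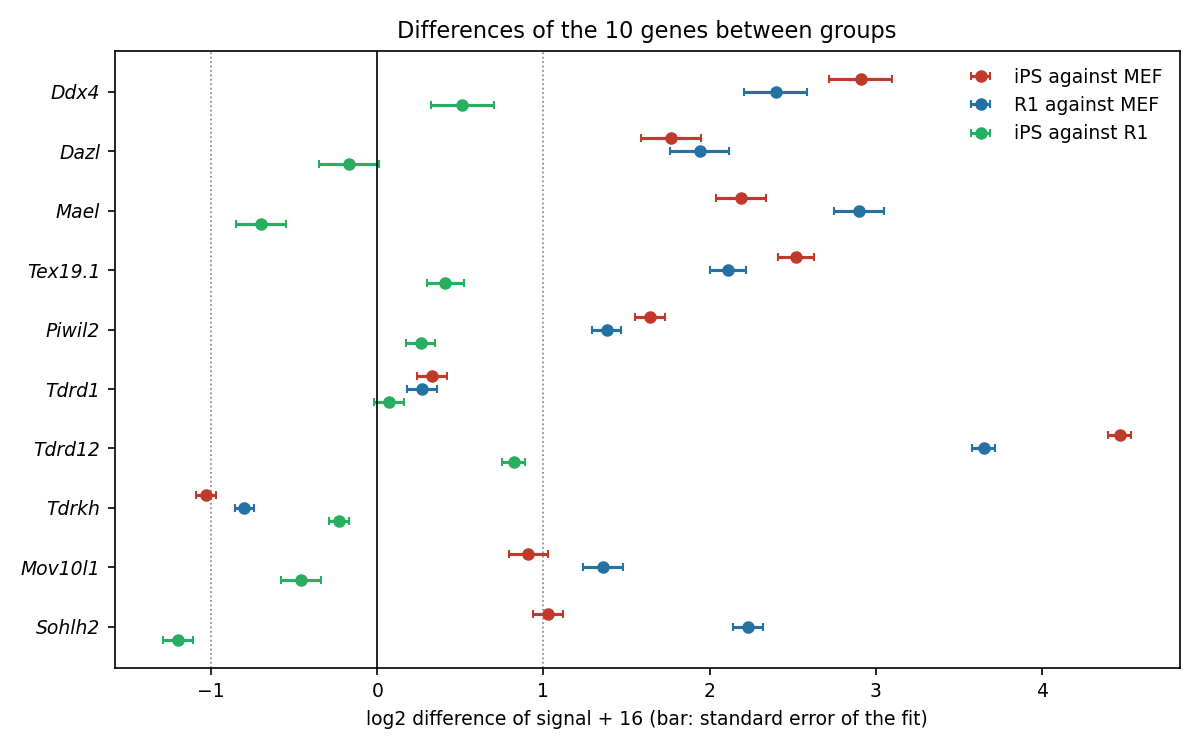
Differences of the 10 genes on the log2(signal + 16) scale for iPS cells against MEF, for R1 against MEF and for iPS cells against R1, with bars for the standard error of the fit and dotted lines at the minimum difference of 1. Tdrd12 lies farthest to the right (4.47 and 3.65 against MEF), Tdrkh is the gene left of 0 against MEF, and Sohlh2 is the gene beyond the line at -1 in iPS against R1 (-1.20).

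Replicate 3 of the iPS cells was the highest iPS array for 7 of the 10 genes and replicate 1 for 0, and replicate 1 was the lowest for 7. Over all genes, iPS replicate 1 was the highest iPS array for 44.4% and replicate 3 for 28.9%. Among R1 arrays, replicate 2 was highest for 6 of the 10 (31.9% of all genes), replicate 1 for 2 (40.8%) and replicate 3 for 2 (27.3%). Replicate 3 was the lowest R1 array for 7. Among MEF arrays, replicate 3 was highest for 5 of the 10 (27.1% of all genes), replicate 1 for 4 (35.5%) and replicate 2 for 1 (37.4%), and replicate 2 was lowest for 6. Shares of all genes were not counted for the lowest array. Across all genes, arrays of the same group correlated at 0.9952 or more.

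The pattern of the 10 genes over the 9 arrays was summarised by their mean standardised profile. Each of the 10 is part of that profile, so their own correlations with it are high by construction, and Tdrkh ran against it (r = -0.922). Other genes were ranked by their likeness to the profile, leaving out predicted (Gm) and Riken symbols. The 5 most like it were Fam83h (r = 0.9988), Bclaf3 (0.9968), Phf5a (0.9965), Sult4a1 (0.9964) and Ncapd3 (0.9960), over 9 arrays that fall into the same 3 groups. Fam83h, for example, had means of 195 in iPS, 204 in R1 and 73.1 in MEF. Of the 18701 genes ranked, 91 reached an r of 0.99, so these 5 are a few among many with high values in both pluripotent groups.

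Other genes of the piRNA pathway shared the direction in part. Of 21 measured genes of a further list, 6 rose and 1 fell in iPS cells against MEF, with a median difference of 0.36. In R1 against MEF 4 rose and 1 fell, with a median difference of 0.51. Of all genes 5.08% rose and 7.58% fell in iPS cells, and 5.56% rose and 7.94% fell in R1. The single fall in each is near the share of all genes. Between iPS and R1 limma called 0, while 2 were higher and 5 lower at an unadjusted p under 0.05. A further 3 listed genes (Fkbp6, Spocd1 and Btbd18) were not analysed here. Pnldc1, the enzyme that trims piRNA 3′ ends, rose by 2.77 ± 0.13 in iPS cells and 3.02 ± 0.13 in R1 (limma adjusted p = 1.06e-07 and 5.31e-08), with mean signals of 375 in iPS, 446 in R1 and 40.9 in MEF. Morc1, a nuclear factor of transposon silencing in male germ cells, rose by 2.49 ± 0.15 in iPS cells and 3.30 ± 0.15 in R1. Rnf17, a Tudor protein of germ cell granules, rose by 2.40 ± 0.13 in iPS cells and 3.04 ± 0.13 in R1. Stk31, a kinase with a Tudor domain, rose by 1.84 ± 0.21 in iPS cells and 1.60 ± 0.21 in R1. Tex15, which works with Piwil4 in transposon methylation, and Tdrd5, another Tudor protein, rose in iPS cells by 1.58 ± 0.10 and 1.11 ± 0.08, and in R1 cells their differences of 0.91 ± 0.10 and 0.71 ± 0.08 were not called. Tdrd7, a Tudor protein also used in the lens, fell in both groups, with differences of -1.16 ± 0.15 in iPS cells and -1.43 ± 0.15 in R1, so that it and Tdrkh had their highest level in fibroblasts. At the other end Tdrd9, a helicase with a Tudor domain, had means of 55.6 in iPS, 56.9 in R1 and 52.0 in MEF, and Asz1, a mitochondrial partner of the pathway, had 13.2, 13.3 and 12.2 in the same order, and neither was called.

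**Figure D4:**
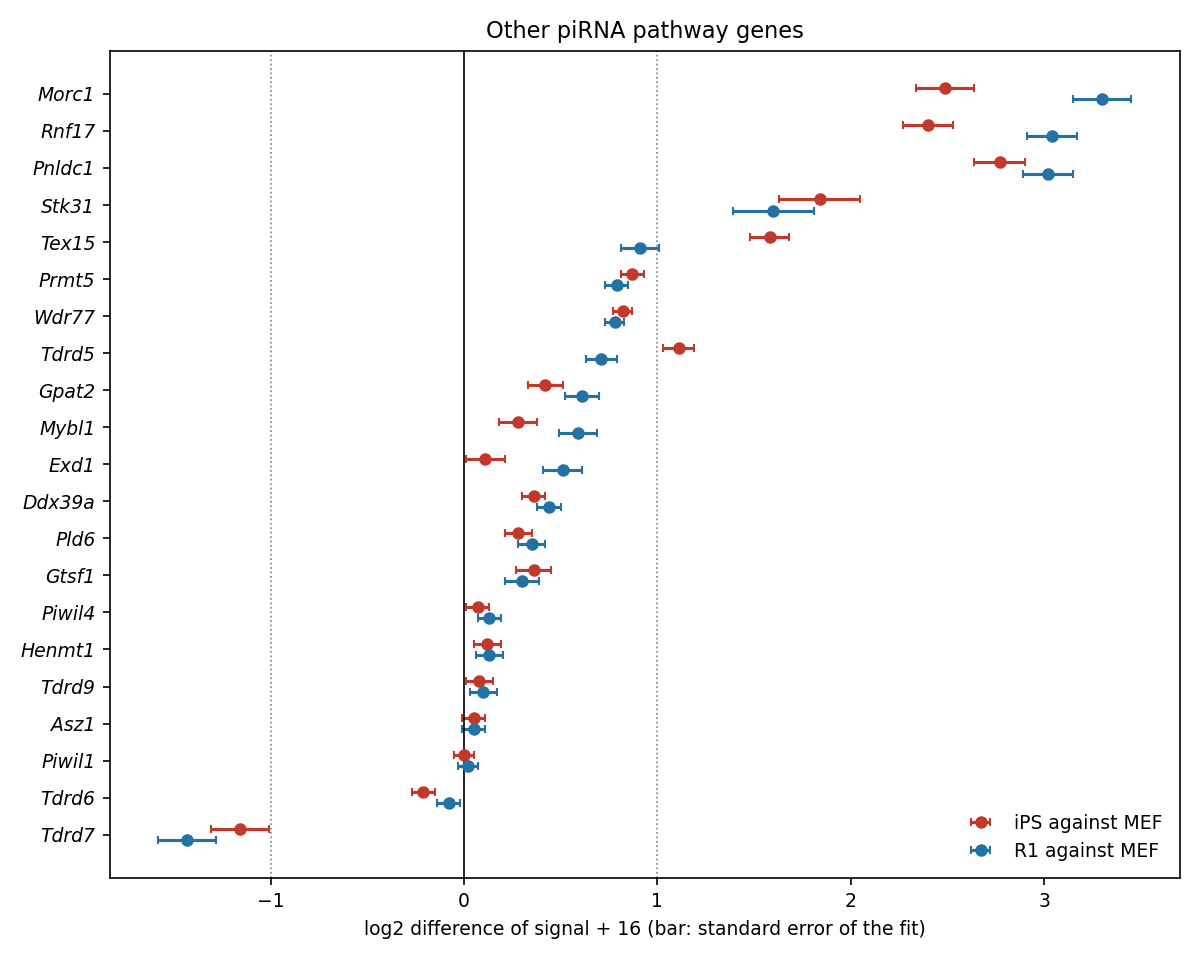
Differences of 21 further piRNA pathway genes against MEF on the log2(signal + 16) scale, with the iPS point drawn over the R1 point, standard errors of the fit and dotted lines at -1 and 1. Morc1, Rnf17 and Pnldc1 lie beyond 2 in both comparisons, Tdrd7 lies beyond -1, and most of the remaining genes lie within 1 of 0.

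Of 15 other RNA regulators of germ cells, 1 rose and 1 fell in iPS cells against MEF and likewise in R1 against MEF, which is near the share of all genes (5.08% higher and 7.58% lower in iPS cells, 5.56% and 7.94% in R1). In iPS against R1, 1 fell (0.166% of all genes) and 0 rose (0.296%). Tex14, a protein of the bridges between germ cells, rose by 1.56 ± 0.10 in iPS cells and by 2.64 ± 0.10 in R1, and fell by 1.08 ± 0.10 in iPS cells against R1 (limma adjusted p = 0.000408). Its mean signals were 127 in iPS, 284 in R1 and 32.1 in MEF, the same order of groups, again without overlap, as for Sohlh2, Mael and Mov10l1. Bicc1, an RNA-binding protein, fell in both, with differences of -2.47 ± 0.11 in iPS cells and -2.65 ± 0.11 in R1. The Dazl relative Boll had means of 30.9 in iPS, 35.8 in R1 and 18.9 in MEF and was not called.

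Of 13 transcription factors of germ cells, 5 rose in iPS cells against MEF (5.08% of all genes) and 6 in R1 against MEF (5.56%). Limma called 0 lower in either (7.58% and 7.94% of all genes), with 1 lower at an unadjusted p under 0.05 in each. Tfap2c, a factor of primordial germ cells and trophoblast, rose by 2.88 ± 0.07 in iPS cells and by 2.19 ± 0.07 in R1, and Prdm14, needed for primordial germ cells and naive pluripotency, by 1.69 ± 0.15 and 1.68 ± 0.15 in the same order. Taf4b, a germ cell form of a general transcription factor subunit, rose by 1.62 ± 0.06 in iPS cells and 1.56 ± 0.06 in R1. Dmrt1, a factor of gonads and spermatogonia, rose by 1.12 ± 0.09 in iPS cells and 1.23 ± 0.09 in R1, and Taf7l, a germ cell relative of Taf7, by 1.05 ± 0.17 and 1.33 ± 0.17. Stra8, which starts meiosis, was called in R1 against MEF (1.10 ± 0.25, limma adjusted p = 0.0045), with mean signals of 42.5 ± 0.51 in iPS, 83.8 ± 49 in R1 and 27.2 ± 3.1 in MEF (SD, n = 3 each). The difference of Stra8 between iPS and R1 was -0.67 ± 0.25 (adjusted p = 0.167).

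Among genes for the repressors and methylation factors of germ line genes, some rose in both pluripotent groups. Of 19 measured, 8 rose in iPS cells against MEF (5.08% of all genes) and 8 in R1 against MEF (5.56%). Limma called 0 lower in either (7.58% and 7.94% of all genes), with 1 and 2 lower at an unadjusted p under 0.05. Dnmt3l, the cofactor of new DNA methylation, rose by 5.44 ± 0.15 in iPS cells and 5.08 ± 0.15 in R1, and Tet1, which oxidises methylated cytosine, by 4.67 ± 0.13 in iPS cells and 4.79 ± 0.13 in R1. Dnmt3b, a DNA methyltransferase, rose by 3.99 ± 0.13 in iPS cells, and Tet2, a relative of Tet1, by 2.54 ± 0.11. Of the repressor complex that reads the E-box and the E2f6 motif, some subunits rose and others were not called. Mga rose by 1.49 ± 0.08 in iPS cells and 1.54 ± 0.08 in R1, L3mbtl2 by 2.04 ± 0.09 and 2.08 ± 0.09, and Pcgf6 by 1.91 ± 0.06 and 1.71 ± 0.06. Max, the partner of Mga, was not called, with differences of 0.33 ± 0.07 in iPS cells and 0.59 ± 0.07 in R1. Ring1, Rnf2 and Cbx3 were not called either, with differences of -0.04 ± 0.05, 0.70 ± 0.07 and 0.24 ± 0.05 in iPS cells. In iPS against MEF, Max (limma adjusted p = 0.00217), Rnf2 (2.74e-05) and Cbx3 (0.00184) missed only the minimum size, while Ring1 had an adjusted p of 0.639. E2f6 itself had means of 336 in iPS, 331 in R1 and 564 in MEF. Its differences from MEF were -0.73 ± 0.07 in iPS cells (limma adjusted p = 1.82e-05) and -0.74 ± 0.07 in R1 (adjusted p = 1.45e-05). Both were lower than in MEF but under the minimum size, so neither was called. Levels of these regulators and of the 10 genes were read on the same 9 arrays, and whether they act on each other here was not tested.

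Of 9 measured genes related in sequence to one of the 10, germ cell genes such as Boll and Piwil1 included, 2 rose in both comparisons against MEF. Of all genes 5.08% rose in iPS cells against MEF and 5.56% in R1 against MEF. Mov10, the somatic relative of Mov10l1, rose by 1.24 ± 0.08 in iPS cells against MEF (limma adjusted p = 5.74e-07), with means of 1210 in iPS, 1260 in R1 and 503 in MEF. D1Pas1, a helicase related to Ddx3x, rose by 1.42 ± 0.21 in R1 against MEF (adjusted p = 0.000239), with means of 174 in iPS, 174 in R1 and 54.5 in MEF. Its relative Ddx3x, found in all cell types, had means of 4950 in iPS, 4710 in R1 and 4200 in MEF and was not called.

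The genes next to the 10 on the chromosome were called about as often as all genes. Of 20 nearest protein-coding genes, 1 rose and 1 fell in iPS cells against MEF (5.08% and 7.58% of all genes). In R1 against MEF 1 rose and 2 fell (5.56% and 7.94%), and limma called 0 between iPS and R1. In each of the 3 comparisons 8 of the 20 had an unadjusted p under 0.05, and counts over all genes at that p were not taken. Gpa33, a surface antigen next to Mael on chromosome 1, rose by 3.44 ± 0.10 in iPS cells and 2.96 ± 0.10 in R1. Rftn1, a lipid raft protein next to Dazl on chromosome 17, fell in both, with differences of -2.11 ± 0.09 in iPS cells and -2.07 ± 0.09 in R1, opposite to Dazl. Beside Sohlh2 on chromosome 3, Ccdc169 differed by 0.08 ± 0.05 between iPS and R1 (limma adjusted p = 0.444) and Dclk1 by 0.24 ± 0.08 (adjusted p = 0.12). Slc38a9, next to Ddx4 on chromosome 13, had means of 89.0 in iPS, 152 in R1 and 96.2 in MEF, with a difference of -0.68 ± 0.05 between iPS and R1 (adjusted p = 0.00015) that was not called.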

How the data were processed

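The deposited table holds intensity on a linear scale for every probe set of 9 arrays in 3 groups. GCOS 1.4 appears in the submitters' processing notes, its role unstated. How the authors corrected background, summarised probes and normalised is not given in the sources used, and no detection calls were used. Values lay between 4 and 18820.3, and array medians were close (78.2 to 83.3), so no normalisation was added. With 3 arrays per group, precision is limited. The platform annotation gave 1 symbol to 21789 of 35557 probe sets and several to 1621, and it did not list 12147. The brightest probe set stood for each of the 999 genes with several, which left 19938 genes.

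Group means of log2(signal + 16) were fitted over the 9 arrays with lmFit and eBayes of limma 3.58.1 under R 4.3.3, leaving 6 residual degrees of freedom. The code of the fit was also run on simulated arrays with independent noise and changes of known size. Such arrays hold no deviation shared between groups, so that run does not test the fit on the arrays used here. Adjusted p-values are limma's after Benjamini-Hochberg adjustment over all genes. No pair of arrays held identical values. Deviations of arrays with the same replicate number correlated at 0.245, 0.018 and -0.082 between iPS and R1. They correlated at 0.229, 0.062 and -0.018 between iPS and MEF, and at 0.21, 0.196 and -0.034 between R1 and MEF. The arrays numbered 1 thus shared some deviation in every pair of groups, and its source was not tested. No 2 groups exceeded 0.1 at every number, so the numbers were not taken to pair samples. Named genes were the 10 members, the called members of the other lists (up to 6 per comparison by size), close relatives, and the 5 genes most like the mean profile of the 10. Cell type marker lists are given by sums and counts, with some of their genes named. The neighbouring genes, Mga, Tdrd5, uncalled list members and the oocyte gene Zp3 were named outside this rule, after their values were seen. The members and the lists were chosen with earlier results of these data known. Alternatives covered normalisation, the pseudocount, dim genes, several probe sets, thresholds, the variance model, the groups in the fit, a block for the replicate number, and omission of each array.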

Additional observations from a re-analysis of the deposited data

Results flagged for a closer look

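Sohlh2 differed between the pluripotent groups, since its difference from MEF was 1.03 in iPS cells and 2.23 in R1, and the direct comparison of iPS with R1 gave -1.20 ± 0.09 (limma adjusted p = 0.000145). The 3 iPS arrays (86.2 to 102) all lay below the 3 R1 arrays (207 to 278). Tex14 differed in the same way, by -1.08 ± 0.10 in iPS against R1 (adjusted p = 0.000408). Among the marker genes, Zfp42, a pluripotency marker, differed by -2.77 ± 0.11 in iPS against R1 (adjusted p = 2.92e-06), with means of 506 in iPS, 3540 in R1 and 33.8 in MEF. Dppa3, a marker of primordial germ cells, differed by 1.63 ± 0.17 (adjusted p = 0.00066), with means of 290 in iPS, 82.6 in R1 and 56.3 in MEF. Ifitm3, an early germ cell marker that fibroblasts also express, differed by 1.14 ± 0.13 (adjusted p = 0.001), with means of 2850 in iPS, 1310 in R1 and 3370 in MEF. Whether Sohlh2 moved with these markers for a shared reason was not tested.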

How the results depend on the processing

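Of 657 values of the 10 genes under the alternatives, 634 kept their direction and their side of the threshold and 23 did not. The number of the 10 called in iPS against R1, 1 as reported, was 0 with a pseudocount of 64, 0 with limma's treat test against a difference of 1, and 5 without a minimum difference (2 higher, 3 lower). Over all genes, 92 were called in iPS against R1 as reported, 45 with a pseudocount of 64 and 10 with treat. Without a minimum difference the counts over all genes were 9572 in iPS against MEF (4945 higher, 4627 lower), 9750 in R1 against MEF (5162 higher, 4588 lower) and 1699 in iPS against R1 (821 higher, 878 lower). In iPS against MEF treat called 1643, where 2524 were called as reported. With the replicate number as a block, 8 of the 10 were called in iPS cells against MEF, 8 in R1 against MEF and 1 in iPS cells against R1, as without it, and the counts over all genes were 2524, 2691 and 92. No call of the 10 changed under that block.

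Leaving out each array in turn, the difference of Dazl in iPS against R1 ran between -0.38 and 0.04 and that of Tdrd1 between -0.04 and 0.12, each reversing once. The R1 calls of Piwil2 (0.97) and Mov10l1 (0.90) against MEF were not made with a pseudocount of 64, nor was that of Mov10l1 with treat (adjusted p = 0.0672). The iPS calls of Tdrkh (-0.62) and Sohlh2 (0.64) against MEF were also not made with that pseudocount, and neither was made with treat. Tdrd1 has no value with dim genes left out. Low signals such as those of Tdrd1 are not told apart from background here.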
